A study of Mus musculus with 12 samples.

Results

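Colony stimulating factors are secreted proteins that make blood cell precursors divide and mature and keep mature myeloid cells alive. The family of genes described here holds 3 ligands, namely Csf1 (macrophage colony stimulating factor, M-CSF), Csf2 (granulocyte-macrophage colony stimulating factor, GM-CSF) and Csf3 (granulocyte colony stimulating factor, G-CSF), and 4 receptor genes, namely Csf1r, Csf2ra, Csf2rb and Csf3r. The members are, by gene symbol, every non-control probe that the scanner files name with 1 of these 7 symbols. This gave 13 probes, 5 for the ligands and 8 for the receptors, among the 56605 non-control probes of the array. All 13 were well above background, by the scanner software's own test, on every array of at least 1 group, and 10 were so on all 12 arrays.

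The tissue was mouse cecum, the pouch at the start of the large intestine, and the injury was a surgical burn of its serosa, which leads to fibrous bands between organs (postoperative adhesion). The 4 groups, each of 3 samples, were a sham operation and cauterization followed for 3, 12 or 72 h. All mice were labelled male. The methods name C57BL/6 (B6) mice and a Wt1GFPCre line, and the sources used here do not give the strain or genotype of the arrayed mice. Neither age nor the extent of the burn in the sampled piece was given in the sources used here. Total RNA of each sample was labelled with Cy3 and hybridized to 1 array of 60-base probes, and the samples are described as biological triplicates. The sham tissue was taken at 0 h, so the effects of cauterization, of the operation and of time after it cannot be told apart in the comparisons with sham.

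The labelled sex did not match the arrays. Every array detected Xist, the RNA of the inactive X chromosome of female cells (levels from -1.32 to -0.50). Of the Y-linked genes, Ddx3y and Eif2s3y were well above background on 0 arrays. Uty was so with 1 of 3 probes on 1 array and Kdm5d with 1 of 6 probes on 12 arrays. No sample was set aside on this account, since the arrays of all 4 groups showed it alike. The share of probes well above background ranged from 60.2% to 65.2%, no spot was saturated, and replicate arrays correlated at Pearson's r of 0.985 to 0.992. All sham and 3 h arrays and 12 h replicates 1 and 2 lay on 1 slide, and 12 h replicate 3 and all 72 h arrays lay on the other. As a check of the tissue label, 12 markers of large intestine epithelium were each well above background on at least 1 array, and their summed intensity was 1403 to 1452 times the 75th percentile of the array in sham and 749 to 980 times at 72 h.

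As background, each factor acts through its own receptor. CSF3 binds a homodimer of CSF3R and drives the production and release of neutrophils. CSF2 binds CSF2RA, its specific chain, which pairs with CSF2RB, the signalling chain that the receptors of interleukin 3 and interleukin 5 also use, and acts on neutrophils, macrophages and dendritic cells. CSF1 binds CSF1R, a receptor tyrosine kinase of monocytes and macrophages on which these cells depend, and interleukin 34 is a second ligand of that receptor. Csf2 and Csf3 are genes that many cells switch on only under stimulation, while Csf1 is made by stromal cells at rest.

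What a probe reports depends on the bases it carries, so those that decide how the values below can be read are shown here. Positions are in the mm9 build named in the scanner files, letters run 5′ to 3′ along the transcript, and at most 30 bases are shown where a probe lies near the 3′ end of its transcript. The Csf3 probe (NM_009971, chr11:98564614-98564673, plus strand) begins at base 1033 of its transcript and holds the letters ATTTA, capitals below, a motif that the 3′ ends of many short-lived cytokine messages carry and that was present on the probe strand in 8.08% of all 56605 probes. The Csf2 probe (NM_009969, minus strand) begins at base 852 of its transcript and holds no ATTTA. Its position in the files, chr11:54060772-54060799, covers 28 bases.
Csf3, probe A_51_P317176: tccctgtttaatATTTAaacagcagtgttc
Csf2, probe A_51_P171075: tctgaaaacgctgactcagcttggacagcg

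Csf1 was read at separate ends of its transcripts. Probe A_51_P195506 (chr3:107544333-107544392, minus strand) targets NM_007778, transcript variant 1, and lists 1 further RefSeq transcript. Probes A_55_P2017914 (chr3:107548550-107548609) and A_55_P2169669 (chr3:107548521-107548580) target NM_001113530, transcript variant 3, and list no other RefSeq transcript. The latter pair overlapped by 31 bases, shown in capitals below as far as the 30 bases reach, so they are not independent readings.
Csf1, probe A_51_P195506: tgtggggcttacttagccttctggttacag
Csf1, probe A_55_P2017914: AGCTGCATCATATATTGTCATATGTTGAGC
Csf1, probe A_55_P2169669: CAGCTGCATCATATATTGTCATATGTTGAG

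Csf2rb has a neighbouring paralog, Csf2rb2, that codes for a chain specific to the mouse receptor of interleukin 3. Probe A_52_P52618 of Csf2rb (chr15:78181168-78181227, plus strand, from base 4501 of NM_007780) and the only Csf2rb2 probe, A_51_P146753 (chr15:78113126-78113185, minus strand), matched at 27 of 30 bases over the stretch given here, in which capitals mark the 3 bases that differ. Probe A_55_P2743485 (chr15:78179450-78179509, from base 2783) lists the Csf2rb2 transcript among its targets. Probe A_52_P664853 (from base 1625) covered 263 bases of the genome, chr15:78176856-78177118, and so crosses an intron. Both of these are shown whole. Each reads through without a stop codon in at least 1 frame, as do most of the other member probes. The fourth probe, A_55_P2733965 (chr15:78184049-78184108), targets a cDNA clone, AK133420.
Csf2rb, probe A_52_P52618: gcagatcaaAtgtCccttggtctCtgttca
Csf2rb2, probe A_51_P146753: gcagatcaaGtgtTccttggtctAtgttca
Csf2rb, probe A_52_P664853: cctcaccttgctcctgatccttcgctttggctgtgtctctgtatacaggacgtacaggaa
Csf2rb, probe A_55_P2743485: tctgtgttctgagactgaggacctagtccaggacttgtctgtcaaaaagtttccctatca

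The Csf3r probe, A_55_P2070352 (chr4:125721478-125721537, plus strand, from base 3165 of NM_007782), was the only 1 of the 13 that shared long runs of letters with many probes of other genes. A run of 15 or more identical bases on the same strand was shared with 12 probes of other genes, against 0 or 1 for each of the other 12 member probes. The longest run was 30 bases, shared with a probe of the transcript TC1653005, followed by 20 bases with a probe of Gm1305 and 19 with a probe of Cript. The capitals below mark the shared run. As background, these letters resemble the start of B1, a short interspersed repeat with many copies in the mouse genome.
Csf3r, probe A_55_P2070352: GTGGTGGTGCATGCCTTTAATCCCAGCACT
TC1653005, probe A_55_P2076190: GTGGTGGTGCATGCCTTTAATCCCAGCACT
Gm1305, probe A_55_P1984523: gatggcaCATGCCTTTAATCCCAGCACgtg
Cript, probe A_55_P2717772: agtgaTGCATGCCTTTAATCCCAGtacttg

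Levels below are log2 of the processed intensity minus log2 of the 75th percentile of the same array, so that 0 is a signal equal to that percentile and a step of 1 is a 2-fold change. They can be set against each other for 1 probe between samples but not between probes. A difference was called where it was at least 2-fold with a limma adjusted p under 0.05 over all 56605 probes, and a gene was called where any of its probes was. By this rule 3 of the 7 genes were higher at 3 h than in sham (Csf2, Csf3 and Csf2rb), where 3.51% of all 37074 genes of the array (a probe without a symbol counting as a gene) were. At 12 h 4 of the 7 were higher (Csf2, Csf3, Csf2ra and Csf2rb), against 4.55% of all genes. At 72 h 5 of the 7 were higher (Csf1, Csf3, Csf1r, Csf2ra and Csf2rb), against 5.03%. No member was called lower than sham at any of the 3 times, and Csf3r was not called in any comparison. The 3 comparisons with sham share the sham arrays. In bulk tissue, a change in the number of cells that carry a transcript and a change of the RNA per cell cannot be told apart.

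**Figure D1:**
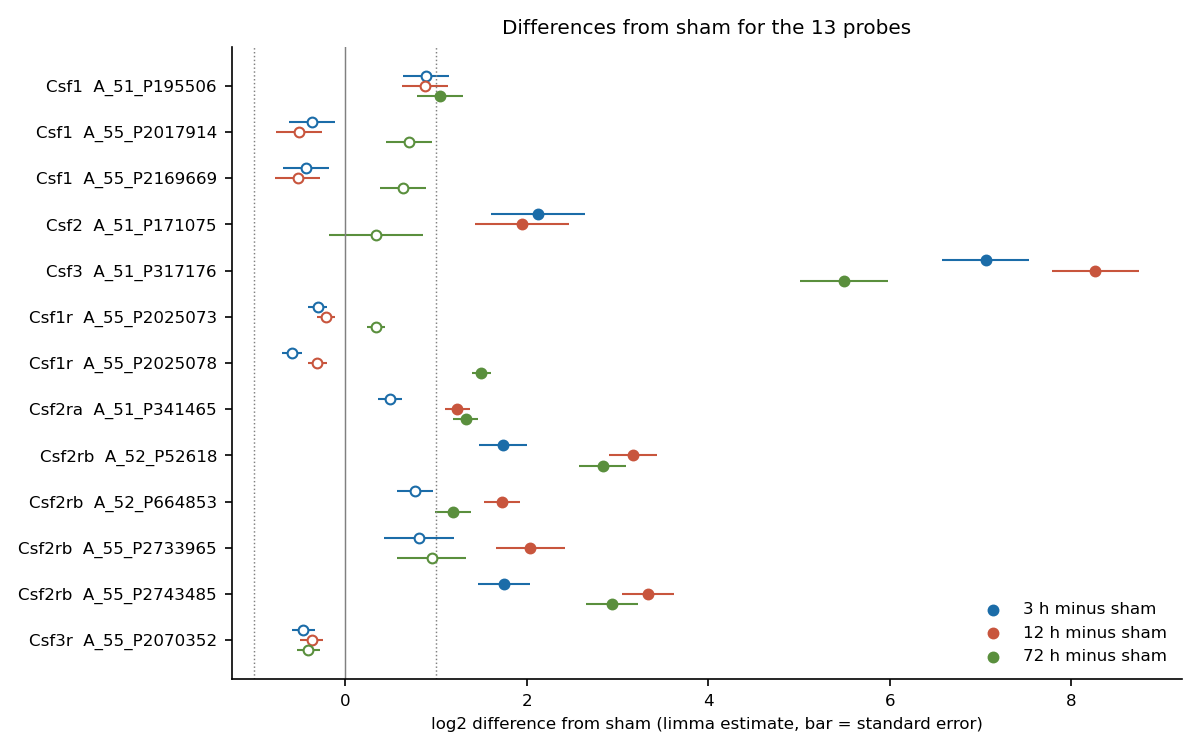
The log2 difference from sham, as estimated by limma, for each of the 13 probes at 3, 12 and 72 h. Horizontal bars are standard errors, filled circles are differences called (at least 2-fold, adjusted p under 0.05), open circles are those not called, and dotted lines mark 2-fold. Csf3 lay farthest from 0 at all 3 times, at 7.06, 8.26 and 5.50, while the Csf3r probe lay between -0.46 and -0.37.

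Among the ligands, Csf3, the neutrophil growth factor, was not detected in the sham cecum and was high at every time after the burn. Its sham levels were -7.29, -7.90 and -7.60, none of them well above background. The 3 h arrays gave -1.21, -0.66 and 0.25, the 12 h arrays 1.85, 0.04 and 0.11, and the 72 h arrays -2.18, -2.15 and -1.98. The groups thus ran from sham through 72 h and 3 h to 12 h, and 3 h and 12 h were the only neighbours in that order whose arrays overlapped. Because the sham arrays gave only a limit, the rise is given as a minimum. For each sham array the lowest signal that was well above background there was taken. Under the main processing the rise was at least 32.0-fold at 3 h, at least 73.9-fold at 12 h and at least 10.9-fold at 72 h. Among the alternatives to that processing, the lowest log2 differences from sham were 2.24, 3.29 and 1.08, below these limits. The fitted differences were 7.06 ± 0.48 (SE, adjusted p = 2.75e-05) at 3 h, 8.26 (adjusted p = 8.07e-06) at 12 h and 5.50 (adjusted p = 8.14e-05) at 72 h. Between 12 h and 3 h the difference of 1.21 was not called (adjusted p = 0.159). Csf3 fell by 2.77 on the log2 scale from 12 h to 72 h (adjusted p = 0.00406), a comparison in which 5.29% of all genes were called higher and 3.67% lower. Under a fit with slide as a block that fall was no longer called (-2.21, adjusted p = 0.108). That value is the difference within the slide that held the 72 h arrays and 12 h replicate 3, so it rests on that 12 h array.

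Csf2, which acts on both granulocytes and macrophages, was dim in all groups and higher at 3 h and 12 h. The sham levels were -5.71, -5.33 and -4.46, the first of them not well above background. The 3 h levels were -3.54, -2.68 and -2.92, the 12 h levels -3.34, -2.04 and -4.27, and the 72 h levels -4.51, -4.75 and -5.22. All 3 h and 12 h arrays lay above all sham arrays, the 12 h arrays spread most widely (SD 1.12, n = 3), and the 72 h arrays lay within the range of the sham arrays. The difference from sham was 2.12 ± 0.52 (SE, adjusted p = 0.0181) at 3 h, 1.95 (adjusted p = 0.0230) at 12 h and 0.34 (adjusted p = 0.672) at 72 h. The lower level at 72 h than at 12 h, -1.62, was not called (adjusted p = 0.0580), and the value depended on single arrays. Without 12 h replicate 3 it was -2.14 (adjusted p = 0.0159), without 12 h replicate 2 it was -1.03 (adjusted p = 0.163), and on the slide that held the 72 h arrays and 12 h replicate 3 it was -0.56. The Csf2 calls were not firm: the 3 h call was lost without sham replicate 1 or 2 or without 3 h replicate 2 or 3 (adjusted p = 0.0542 to 0.0741), and the 12 h call without sham replicate 1 or 2 or 12 h replicate 1 or 2 (adjusted p = 0.0557 to 0.0891). With a normexp background correction the differences were 0.60 and 0.47.

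Csf1, the macrophage growth factor, differed between its probes. The probe for transcript variant 1 stood at 0.34, 0.30 and 0.42 in sham, 1.10, 1.42 and 1.20 on the 3 h arrays, 1.72, 0.67 and 1.32 on the 12 h arrays and 1.82, 1.18 and 1.20 on the 72 h arrays. Every array after cauterization lay above every sham array, and the arrays of the 3 times overlapped each other. The difference from sham was 0.89 ± 0.26 (SE, adjusted p = 0.0366) at 3 h and 0.88 (adjusted p = 0.0333) at 12 h, both under 2-fold, and 1.04 (adjusted p = 0.0172) at 72 h, which was called. The 72 h call was lost without sham replicate 1, sham replicate 2 or 72 h replicate 1 (0.83 to 1.04, adjusted p = 0.0502 to 0.0597) and with slide as a block (0.92, adjusted p = 0.296).

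The pair of probes for Csf1 transcript variant 3 followed another course. In probe A_55_P2017914 the sham arrays gave -1.48, -1.77 and -2.15, the 3 h arrays -2.34, -2.01 and -2.14, the 12 h arrays -1.92, -2.69 and -2.30, and the 72 h arrays -0.66, -1.26 and -1.38. Here the 3 h and 12 h arrays overlapped sham and only the 72 h arrays lay above it. The differences from sham were -0.36, -0.50 and 0.70 at 3, 12 and 72 h, none called. Those of the overlapping probe A_55_P2169669 were -0.43, -0.52 and 0.64, also not called. In that probe the 12 h arrays lay below all sham arrays, and the 3 h and 72 h arrays overlapped sham. From 12 h to 72 h both probes rose, by 1.20 ± 0.25 (SE, adjusted p = 0.0100) and by 1.16 ± 0.25 (SE, adjusted p = 0.0111), with no overlap of arrays. With slide as a block neither was called. The values of that fit are the within-slide differences, 1.20 and 1.04, which rest on 12 h replicate 3. Without 72 h replicate 1 they were 0.98 and 0.94. Whether variant 3 changed relative to variant 1 was not tested.

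**Figure D2:**
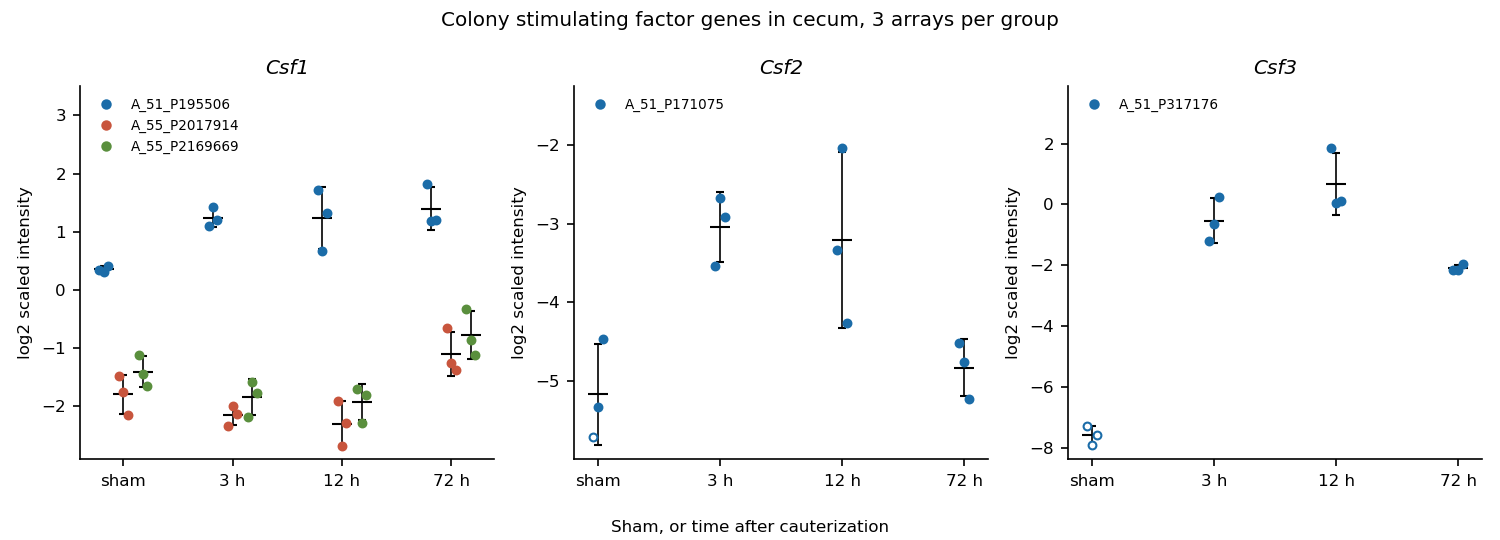
Levels of the ligand genes on each array, as log2 intensity scaled to the 75th percentile of the array, by group (sham, or time after cauterization). Circles are single arrays, open where the probe was not well above background, and black bars are the mean ± SD of 3 arrays. Heights compare groups within 1 probe, not probes. Csf3 left the background on all arrays after cauterization, and Csf2 was back in the sham range at 72 h. The 2 probes of Csf1 transcript variant 3 (from -2.69 to -0.32) had their highest means at 72 h.

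Among the receptors, both chains of the GM-CSF receptor were higher at 12 h and 72 h. Csf2ra (NM_009970, chromosome 19 from 61300336 to 61300395), the chain that binds CSF2, stood at 2.51, 2.38 and 2.42 in sham, 2.72, 3.15 and 2.93 on the 3 h arrays, 3.70, 3.68 and 3.64 on the 12 h arrays and 3.89, 3.53 and 3.87 on the 72 h arrays. The levels rose in the order of the times, and 12 h and 72 h were the only neighbours that overlapped. The difference from sham was 0.49 ± 0.13 (SE, adjusted p = 0.0296) at 3 h, under 2-fold, and was called at 12 h (1.23, adjusted p = 0.000216) and 72 h (1.33, adjusted p = 0.000197). The step from 3 h to 12 h was 0.74 (adjusted p = 0.0104), also under 2-fold.

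Csf2rb, the signalling chain, was called higher at 12 h with all 4 probes. Probe A_52_P52618 stood at 0.37, 0.42 and 0.93 in sham, 1.87, 2.63 and 2.43 on the 3 h arrays, 4.06, 3.71 and 3.47 on the 12 h arrays and 3.67, 2.98 and 3.57 on the 72 h arrays. Arrays of sham, 3 h and 12 h did not overlap, and those of 72 h overlapped only those of 12 h. The difference from sham was 1.74 ± 0.26 (SE, adjusted p = 0.00178) at 3 h, 3.17 (adjusted p = 4.74e-05) at 12 h and 2.84 (adjusted p = 0.000115) at 72 h.

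Probe A_55_P2743485, which also lists Csf2rb2, rose by 1.75, 3.34 and 2.94 at the 3 times, all called. The intron-crossing probe A_52_P664853 moved less, by 0.77 at 3 h (adjusted p = 0.0230, under 2-fold), 1.73 at 12 h (adjusted p = 0.000277) and 1.18 at 72 h (adjusted p = 0.00285), and its 72 h call was lost with slide as a block (1.43, adjusted p = 0.0721). The clone probe A_55_P2733965 was well above background on 0 sham, 2 of the 3 h, 3 of the 12 h and 3 of the 72 h arrays. It was called at 12 h only, at least 3.09-fold above sham (adjusted p = 0.00413). The 4 probes thus gave 1 direction at 12 h and differences from 1.73 to 3.34. With normexp background correction the 12 h calls of A_52_P664853 and A_55_P2733965 were lost. Those of A_52_P52618 and A_55_P2743485, which resemble or list Csf2rb2, were kept.

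Csf2rb was also the only member called between 3 h and 12 h, where 2.32% of all genes were called higher. The rise was 1.44 ± 0.26 (SE, adjusted p = 0.0106) with probe A_52_P52618 and 1.59 ± 0.29 (SE, adjusted p = 0.00992) with A_55_P2743485. On the slide that held both groups it was 1.58 and 1.71. With the other 2 probes it was 0.96 (adjusted p = 0.0174) and 1.23 (adjusted p = 0.0786), neither of them called. From 12 h to 72 h no Csf2rb probe was called, with differences from -1.09 to -0.34.

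The paralog Csf2rb2 moved with it. Its probe stood at -0.23, -0.37 and 0.34 in sham, 1.13, 1.38 and 1.61 on the 3 h arrays, 2.66, 2.30 and 2.19 on the 12 h arrays and 3.05, 2.30 and 2.88 on the 72 h arrays. The differences from sham were 1.46 ± 0.25 (SE, adjusted p = 0.00313), 2.47 (adjusted p = 0.000140) and 2.83 (adjusted p = 8.05e-05). How much of the signal of probes A_52_P52618 and A_55_P2743485 came from Csf2rb2 RNA, which they resemble or list, was not tested.

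The Csf3r probe, nominally for the G-CSF receptor of neutrophils, went slightly down. It stood at 5.97, 5.72 and 5.85 in sham, 5.31, 5.49 and 5.35 on the 3 h arrays, 5.41, 5.41 and 5.60 on the 12 h arrays and 5.65, 5.37 and 5.29 on the 72 h arrays. All arrays after cauterization lay below all sham arrays, with differences of -0.46 ± 0.13 (SE, adjusted p = 0.0296), -0.37 (adjusted p = 0.0632) and -0.41 (adjusted p = 0.0449), each under 2-fold. Over the same arrays 14, 18 and 15 of 20 neutrophil markers were called higher at 3, 12 and 72 h, with a median difference of 4.05, 6.08 and 4.42.

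The 12 probes of other genes that share a run with the Csf3r probe were all well above background on all 12 arrays. Of these, 11, 10 and 10 were below their sham mean at the 3 times, with median differences of -0.57, -0.30 and -0.29. The probe of TC1653005, with the longest shared run, differed from sham by -0.39, -0.42 and -0.47 at the 3 times. Its centred profile lay 0.07 log2 units (root mean square over 12 arrays) from that of the Csf3r probe. Which RNA gave the Csf3r signal was not tested, so its level is not read here as that of the receptor. Csf3r had no other probe on the array.

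**Figure D3:**
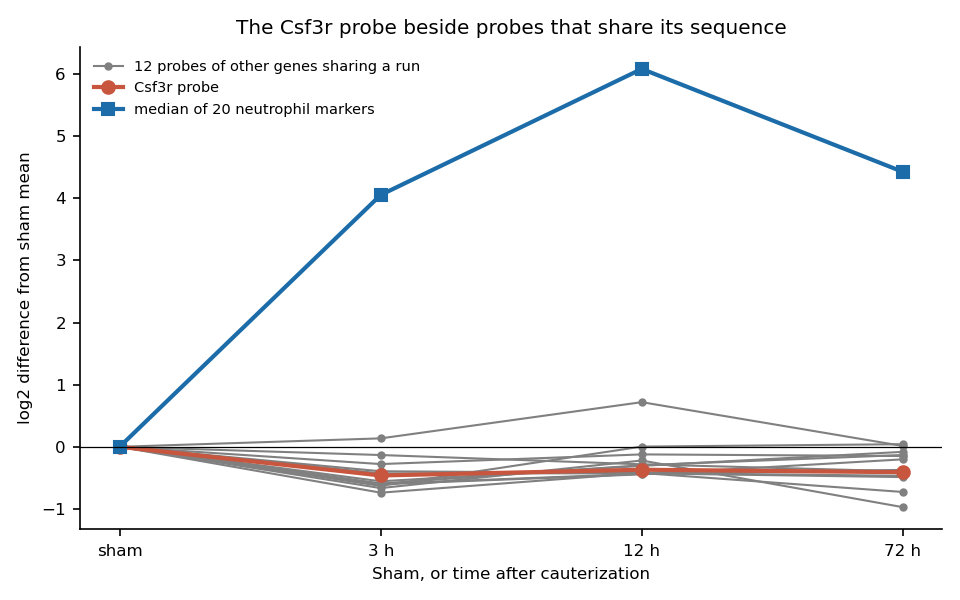
The log2 difference of group means from the sham mean for the Csf3r probe (red), for the 12 probes of other genes that share a run of 15 or more bases with it (grey), and the median limma difference of 20 neutrophil markers (blue), by group. The Csf3r probe ran among the grey lines, between -0.46 and -0.37, while the neutrophil median reached 6.08 at 12 h.

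Csf1r, the M-CSF receptor, was called higher at 72 h with 1 of its 2 probes. The probe near the 3′ end of its transcript, A_55_P2025078 (from base 3806 of NM_001037859, chromosome 18 from 61290725 to 61290784), stood at 3.73 on all 3 sham arrays, 2.98, 3.17 and 3.28 on the 3 h arrays, 3.29, 3.49 and 3.48 on the 12 h arrays and 5.22, 5.27 and 5.20 on the 72 h arrays. No groups overlapped, and the order was 3 h, 12 h, sham and 72 h. The differences from sham were -0.59 ± 0.11 (SE, adjusted p = 0.00448) at 3 h, under 2-fold, -0.31 (adjusted p = 0.0669) at 12 h and 1.50 (adjusted p = 2.63e-05) at 72 h. From 12 h to 72 h Csf1r rose by 1.81 (adjusted p = 5.35e-05), and by 1.74 within the slide that held 12 h replicate 3. The other probe, A_55_P2025073 (from base 1841, chromosome 18 from 61278661 to 61278720), gave -0.30, -0.21 and 0.34 against sham and 0.55 ± 0.10 (SE, adjusted p = 0.00589) between 12 h and 72 h, none called. Its group means had the same order, but the 12 h arrays overlapped those of sham and of 3 h, and only the 72 h arrays lay apart from all others.

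**Figure D4:**
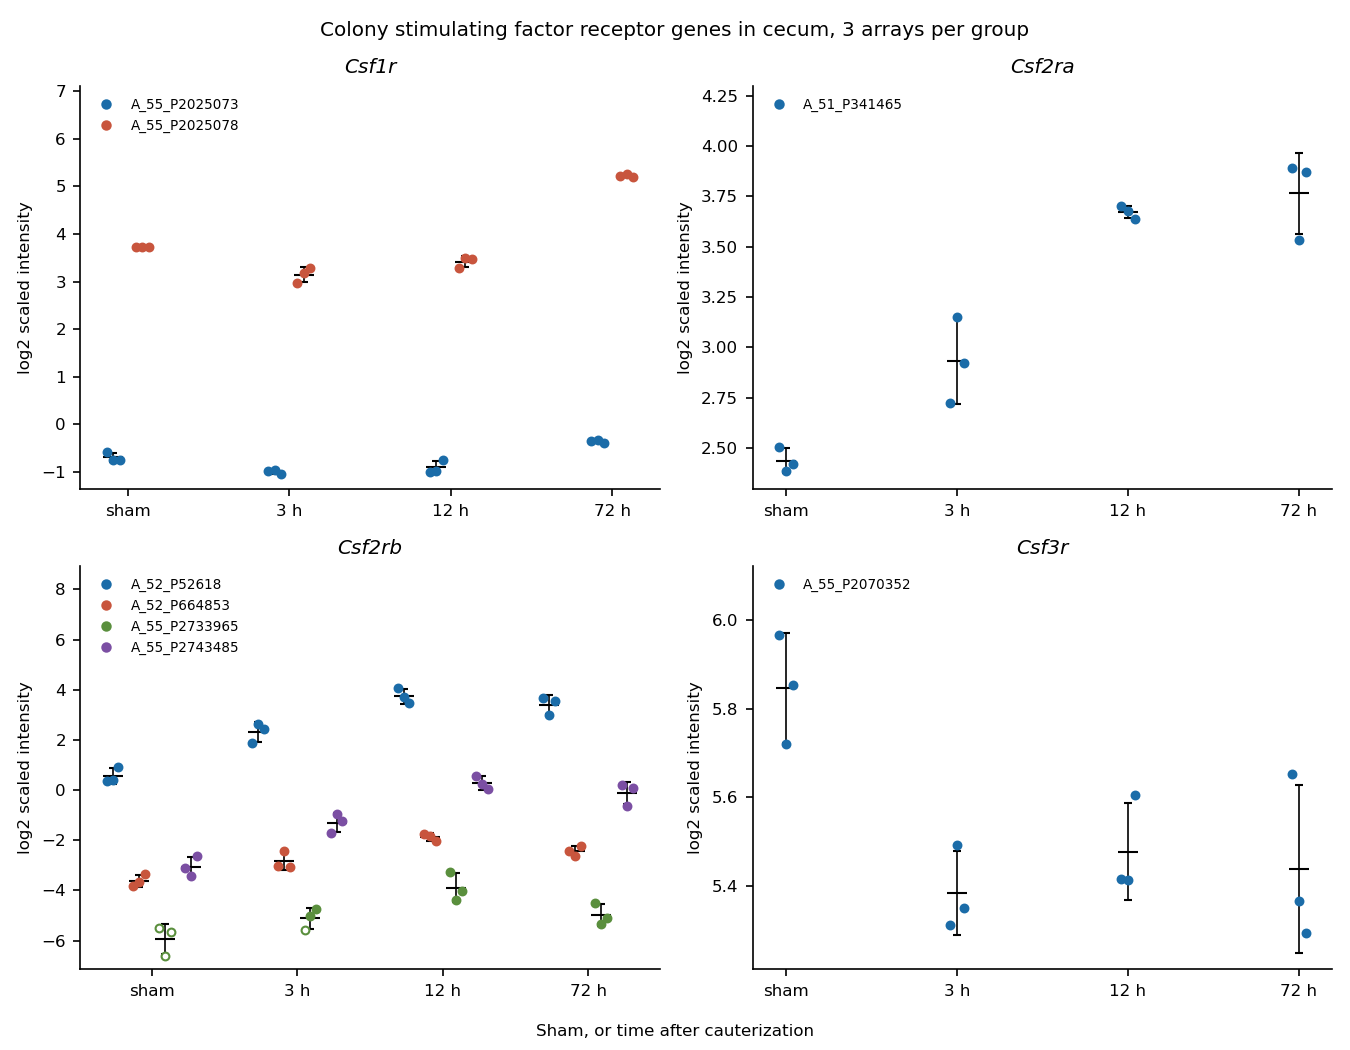
Levels of the receptor genes on each array, as log2 intensity scaled to the 75th percentile of the array, by group. Circles are single arrays, open where the probe was not well above background, and black bars are the mean ± SD of 3 arrays. Heights compare groups within 1 probe, not probes, and the axes differ between panels. Both Csf1r probes were highest at 72 h, and the Csf3r probe stayed between 5.29 and 5.97. Csf2rb was called higher from 3 h, at that time with probes A_52_P52618 and A_55_P2743485 only. Csf2ra was called higher from 12 h and lay above sham at 3 h by under 2-fold.

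The other ligand of Csf1r, Il34, was called higher at all 3 times with its brighter probe. It stood at -0.93, -1.16 and -0.84 in sham, 0.49, 0.16 and 0.37 on the 3 h arrays, 0.45, 0.57 and 0.69 on the 12 h arrays and -0.19, 0.21 and 0.17 on the 72 h arrays. The differences were 1.32 ± 0.15 (SE, adjusted p = 0.000361), 1.55 (adjusted p = 0.000101) and 1.04 (adjusted p = 0.00115). Of the list of 10 genes of receptor systems that share a ligand, chain or kinase family with the members, 2 were called higher at each time, namely Csf2rb2 and Il34, and 1 lower at 12 h, Kit, the stem cell factor receptor (-1.03 ± 0.14, adjusted p = 0.000840). For these lists the brightest probe of each gene was used, by which 3.14%, 3.95% and 4.5% of all genes were called higher at 3, 12 and 72 h and 4.33%, 5.33% and 4.4% lower. The median difference of the list was -0.05, -0.01 and 0.37, beside 0.06, -0.04 and -0.15 over all genes. Il3 was well above background on 0 arrays.

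Signal transducers of these receptors were called higher in part. Of 29 genes, 4 were higher at 3 h, 9 at 12 h and 8 at 72 h, none was lower, and the list's median difference was 0.20, 0.22 and 0.30. Among those called at 12 h were Fgr, a Src family kinase (3.36 ± 0.24, adjusted p = 1.94e-05), Tyrobp, an adaptor that carries CSF1R and other myeloid signals (2.64), and Pik3r5 (2.12). Stat3, the transcription factor that CSF3R activates, was called at 3 h (1.26 ± 0.11, adjusted p = 9.22e-05). Fgr and Tyrobp are myeloid genes in their own right.

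Feedback inhibitors and early targets were called higher for 10, 11 and 8 of 23 genes at the 3 times, with median differences of 0.61, 0.999 and 0.49. At 3 h Osm (oncostatin M) rose by 6.00 ± 0.43 (SE, adjusted p = 3.54e-05), Socs3, which inhibits CSF3R signalling, by 4.37, Egr1 by 2.95 and Bcl3 by 2.77. Dok1, an adaptor that dampens kinase signalling, was the only 1 called lower, at 3 h (-1.05 ± 0.12, adjusted p = 0.000367). These genes answer to many cytokines, and which receptor moved them was not tested.

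Myeloid transcription factors were called higher for 8, 8 and 9 of 15 genes at the 3 times, with median differences of 1.08, 1.15 and 1.18. At 12 h Cebpb (3.22 ± 0.23, adjusted p = 1.94e-05), Nfil3 (3.02), Spi1, which drives the Csf1r gene in macrophages (2.92), and Cebpd (2.56) stood highest above sham. Cebpe, a factor of late granulocyte maturation, was called lower at 3 h (-1.29 ± 0.29, adjusted p = 0.0121) and higher at 12 h (1.57) and 72 h (1.70).

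Cytokines known to induce Csf2 and Csf3 were called higher in most cases. Of 12 genes listed, 11 were found by symbol, and Il36g was not. Of the 11 genes, 8, 7 and 6 were called higher at the 3 times, with median differences of 2.66, 3.57 and 2.60. Il6 rose by 7.59 ± 0.45 (SE, adjusted p = 1.15e-05) at 3 h and by 6.72 and 7.19 at the later times, and Il1b by 6.71, 8.32 and 7.35. Il1a and Il17a, well above background on 0 sham arrays, were at least 14.1-fold and 3.03-fold higher at 3 h and at least 18.4-fold and 12.7-fold higher at 72 h. Lta was called lower at 72 h (-1.82 ± 0.42, adjusted p = 0.0139).

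Markers of the cells that carry the receptors moved over the same arrays. The summed intensity of 20 neutrophil markers, in units of the 75th percentile of each array, was 5.69 to 9.65 in sham, 233.8 to 431.5 at 3 h, 687.1 to 817.6 at 12 h and 250.3 to 583.3 at 72 h. S100a9 (10.04, 10.82 and 10.06) and S100a8 (10.77, 12.29 and 10.95) were among the largest differences, and Cxcr2 was at least 60.2-fold above sham at 3 h. Not all of these markers stayed high. From 12 h to 72 h 4 of the 20 were called lower, 1 was called higher and 15 were not called. Counting any probe, 5.29% of all genes were called higher in that comparison and 3.67% lower. The lower ones were Ly6g, a surface protein of mouse neutrophils (-3.70 ± 0.55, adjusted p = 0.00186), Ngp (-5.10), Ltf (-2.80) and Lcn2 (-2.32). Mpo was the higher one (2.18, adjusted p = 0.00471). At 72 h Ly6g was at -0.09 from sham (adjusted p = 0.920). The highest sums fell at 12 h, as did the highest Csf2rb and Csf3 means. These peaks were not set apart from every other time. Csf3 at 12 h overlapped 3 h (1.21, not called), and no Csf2rb probe was called between 12 h and 72 h. Most of the 12 h sums came from the bright probes of S100a9, S100a8 and Lcn2, whose mean levels there were 8.38, 7.25 and 6.93. The neutrophil sums are therefore not read as an amount of neutrophil RNA.

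Of 20 monocyte and macrophage markers, 4, 8 and 14 were called higher and 2, 2 and 0 lower at the 3 times, with median differences of 0.19, 0.21 and 1.62. At 3 h Cx3cr1, a marker of resident macrophages (-2.82 ± 0.24, adjusted p = 9.12e-05), and Mertk (-1.05) were called lower, while Ly6c1, Ly6c2, Chil3 and Arg1 were called higher and C1qb (0.17), Mrc1 (0.21) and Lyve1 (0.09) were not called. At 12 h Cx3cr1 (-1.24) and Folr2 (-1.50) were called lower, and Adgre1 (1.18), Cd68 (1.34), Ccr2 (2.44) and Fcgr1 (2.52) were among those called higher. Markers of the list were thus called in both directions at 3 h and 12 h. At these times the means of Csf1r probe A_55_P2025078 lay below sham by under 2-fold. The differences were -0.59 (limma adjusted p = 0.00448) at 3 h and -0.31 (limma adjusted p = 0.0669) at 12 h. At 72 h, when Csf1r was called higher, Ccr2 (3.37) and Adgre1 (2.65) were called higher too. Arg1, well above background on 0 sham arrays, had the largest difference of the list at 12 h and 72 h. It was at least 92.5-fold and 298-fold above sham at these times. Other than Cx3cr1, Mertk and Folr2, the markers named here for 3 h and 12 h were chosen after their values were seen. The summed intensity of the list was 108.5 to 165.2 in sham, 272.0 to 366.8 at 3 h, 343.6 to 383.9 at 12 h and 289.0 to 328.7 at 72 h. Most of each sum came from the 3 bright probes of Ly6c1, Ly6c2 and Lyz2, whose mean levels at 3 h were 6.60, 6.60 and 6.36, and at that time 14 of the 20 markers were not called in either direction. The sums are therefore not read as an amount of macrophage RNA. The part of neutrophil and macrophage RNA in the receptor values was not tested.

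Markers of the other cell types were mixed. Dendritic cell markers were called higher for 2, 1 and 0 of 9 genes at the 3 times (medians -0.29, -0.33 and 0.44), eosinophil markers for 0, 0 and 1 of 7 (0.05, 0.46 and 0.83) and mast cell markers for 1, 0 and 4 of 9 (0.61, 0.42 and 1.12). T cell and innate lymphoid cell markers were called higher for 1, 1 and 0 of 13, Il22 in each case (medians -0.20, 0.19 and -0.23), and B cell markers for 0 of 6 (-1.62, -0.15 and -1.17). Fibroblast markers, whose cells can make CSF1, were called lower for 4 of 8 at 12 h and higher for 5 of 8 at 72 h, and their summed intensity was 116.4 to 127.7 in sham, 67.7 to 73.2 at 12 h and 296.1 to 668.0 at 72 h. The Csf1 variant 3 probes likewise had their lowest means at 12 h and their highest at 72 h. Their 12 h means differed from those at 3 h by only -0.14 and -0.09, with overlapping arrays, and neither difference was called. The Csf1 variant 1 probe lay above sham at 12 h (0.88, under 2-fold). The part of fibroblast RNA in these probes was not tested. The medians of the fibroblast list were -0.64, -0.85 and 1.31.

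Endothelial markers were called higher for 3 of 8 genes at 72 h alone (medians -0.44, -0.46 and 0.55). Mesothelial markers were called higher for 1, 1 and 3 of 8 and lower for 2, 2 and 0 (0.15, -0.02 and 0.45). Smooth muscle markers were called lower for 1, 6 and 6 of 6 (-0.78, -1.46 and -1.52), and large intestine epithelium markers for 0, 1 and 4 of 12 (0.17, -0.19 and -0.73). At 72 h the median difference over all probes was itself -0.16, so every 72 h value above stands against that shift.

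The genes most like each member were those with the smallest root mean square distance between centred profiles over the 12 arrays, among 15786 named genes. For Csf3 they were Mrgpra6 (0.51 log2 units), Il1f9 (0.66) and Ccl4 (0.68), and for Csf2 Hsph1 (0.53), Tmem181a (0.53) and Ramp3 (0.55). For Csf1 they were Sntb2 (0.19), Chst11 (0.23) and Prkch (0.24), for Csf1r P2rx7 (0.17), C1qc (0.19) and Cysltr1 (0.21), and for Csf2ra Amica1 (0.15), Plekho2 (0.16) and Snx18 (0.16). For Csf2rb they were Fgr (0.24), Jdp2 (0.26) and Cyp4f18 (0.29). For the Csf3r probe they were Mtif2 (0.05), Heatr3 (0.06) and Nos1ap (0.06), and the Mtif2 probe is 1 of the 12 that share a run with it. C1qc is a complement gene of macrophages and Fgr a kinase of myeloid cells, and the points of each profile share the same 12 arrays.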

How the data were processed

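The deposited scanner files hold processed intensity per spot, made by the authors with Feature Extraction 11.5.1.1 (mm9), and a background call. The authors' own value table, on the log2 scale per the deposited matrix, was made with GeneSpring from 75th percentile normalization, and each row was centred on its median. It correlated at 0.9995 with the values used here and served as an alternative. Intensities of 59305 non-control spots were divided by their array's 75th percentile, outlier spots (53 to 152 an array) were dropped, log2 was taken and spots of a probe were averaged, giving 56605 probes. A probe without a symbol counted as its own gene, and the brightest probe stood for a gene except where any probe counted. Group means of the 12 arrays were fitted together with limma 3.58.1 (lmFit, eBayes, R 4.3.3), with Benjamini-Hochberg adjustment over 56605 probes, and called at 2-fold and 0.05. The code was tested on simulated data. Precision is limited by 3 arrays a group.

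Members and gene lists were chosen with earlier results of these data known, so counts in them are descriptions. Every member and probe was named. For each list other than cell type markers up to 4 called genes of the largest difference were named, with those called against the majority. The cell type markers named were not always those of the largest difference, and for some of these lists more than 3 were named. For each member the 3 genes of most like profile were named. Identical runs between probes were searched with 15 bases. Alternatives were other normalizations, background correction, filters, blocks and tests, and leaving out each array.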

Additional observations from a re-analysis of the deposited data

Results flagged for a closer look

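Each value here is a difference between 2 times after cauterization, which tests whether the effects against the shared sham group differ between these times. For Csf2rb it was 1.44 (A_52_P52618) and 1.59 (A_55_P2743485) at 12 h against 3 h. At 72 h against 12 h it was 1.81 for Csf1r (A_55_P2025078), 1.20 and 1.16 for Csf1 (A_55_P2017914 and A_55_P2169669, which share 31 bases) and -2.77 for Csf3 (A_51_P317176). All passed limma's test after adjustment over all probes. The Csf2rb probes flagged here resemble or list Csf2rb2, which itself rose by 1.01 at 12 h against 3 h and was called. Csf2rb probes A_52_P664853 (0.96) and A_55_P2733965 (1.23) were not called in that comparison. The Csf1 and Csf3 values at 72 h against 12 h were not called with slide as a block, which rests on 12 h replicate 3 alone. Single arrays were not screened for outliers, because the groups held 3 arrays each.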

How the results depend on the processing

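Of 1898 values of single member probes under alternatives, 1789 kept their side of the threshold, 77 lost a call and 32 gained one, and no called value reversed its sign. In the order 3 h, 12 h and 72 h against sham, 12 h against 3 h and 72 h against 12 h, 3, 4, 5, 1 and 3 of the 7 member genes and 2768, 3442, 3300, 1282 and 2755 of all genes were called, where a member counts by any of its probes and the counts over all genes use the brightest probe. By its brightest probe Csf1 was not called at 72 h against 12 h (0.16). With the replicate number as a block the counts were 3, 4, 5, 1 and 3 members and 2641, 3328, 3162, 1103 and 2586 of all genes. The numbers were not taken to pair the samples, since same-numbered arrays of different groups correlated in their deviations at -0.40 to 0.26 and differently numbered arrays at -0.30 to 0.39.

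With normexp background correction 831, 1353, 1257, 580 and 1064 genes were called, and 2 members at 12 h against 3 h. Slide as a block left 1148 genes at 72 h against sham and 1221 at 72 h against 12 h, with 1 member (Csf1r) in the latter. That fit compares sham with 72 h only through the 12 h arrays, since no slide held both. The methods name a paired t-test for comparing 2 groups in general, and no test for the arrays. Such a test, paired here by replicate number, called 2213, 2893, 2644, 994 and 1872 genes at an unadjusted threshold with 2-fold. After Benjamini-Hochberg adjustment it called 0, 2, 0, 0 and 0 genes, with 0 members in any comparison. Dunnett's test after adjustment called 2191 at 72 h. A limma test against a 2-fold change (treat) called 366, 727, 527, 13 and 245 genes and 1, 2, 3, 0 and 1 members. With no fold threshold 6942, 8009, 7846, 3381 and 6751 genes were called, with 7 members at 3 h and 2 at 12 h against 3 h. The 2 groups fitted alone gave 852 genes at 12 h against 3 h. Averaging a gene's probes left 3 members at 72 h against sham (Csf3, Csf2ra and Csf2rb). A filter or a floor on dim probes gave 5 members at 72 h against 12 h. The members gained were Csf2 and, by its dim clone probe, Csf2rb. In that comparison the floor called 1446 of all genes higher and 859 lower. Counts over all genes for the filter and for averaging are not given here. The causes were not tested.

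Of the calls against sham, 42.1%, 42.6% and 50.5% were higher at the 3 times. With quantile normalization 62.8% were higher at 72 h, and with normexp 74.0%, 58.7% and 66.3%. The sham arrays of Csf3 and the dim Csf2 and Csf2rb clone probes lay near background, which limits their fold changes.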
